A study of Homo sapiens with 4 samples.

Results

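The cytoplasmic ribosomal protein genes encode the protein subunits of the ribosome that translates nuclear messenger RNA. The 77 genes described here were chosen by symbol alone, as RPL or RPS followed by a number with at most a closing A or X, together with RPLP0, RPLP1, RPLP2 and RPSA. They are 77 of the 58229 genes of the deposited table, 46 of the large subunit (RPL genes) and 31 of the small subunit (RPS genes). Every one reached 1 FPKM in at least 2 libraries and was therefore tested, among 14622 genes tested in all. FPKM are fragments scaled to transcript length and to library size, so the read counts behind a value are unknown.

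RNA was profiled in CD31+ cells at day 8 of a stepwise hematopoietic differentiation with activinA and BMP4, followed by VEGF and bFGF. The starting cells were H1, an established line of human embryonic stem cells. The 2 Control libraries came from H1 cells without HAND1 overexpression. The 2 HAND1_OE libraries came from H1 cells in which the transcription factor HAND1 was overexpressed, and both groups went through the same differentiation and selection for CD31 (PECAM1). All cells came from a single line, and nothing in the labels says that replicates were separate cultures, so p-values measure only the spread between these libraries. HAND1 itself was at 520 and 517 FPKM in the HAND1_OE libraries, compared with 12.1 and 14.3 FPKM in the Control libraries. Its log2 fold change was 5.20 (limma adjusted p = 0.00145).

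The ribosome is built from a large subunit, which joins amino acids, and a small subunit, which reads the messenger RNA. Each subunit needs nearly all of its proteins in fixed proportion, so these genes are known for similar, high and coordinated expression. Most of their mRNAs begin with a 5′ terminal oligopyrimidine (TOP) motif, a C at the first base followed by further pyrimidines. Through this motif, mTOR signalling and the RNA-binding protein LARP1 control their translation and stability. Loss of a single copy of several of them causes Diamond-Blackfan anaemia, a failure of red cell production.

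The TOP motif was searched at the annotated start of transcription in promoter windows of RefSeq (GRCh38.p14), as a C followed by at least 4 bases that are each C or T, on the strand of the transcript only. A window was found for 62 of the 77 genes. A TOP start was present at the annotated first base in 46 of the 62 (74.2%), in 28 of 38 large subunit and 18 of 24 small subunit genes. Of all 27305 genes with a window, 5.14% had one. Where a gene had several annotated starts, any of them could count. When the start was allowed to lie up to 5 bases away, the motif was found in 53 of the 62 genes (85.5%) and in 25.2% of all genes. The 30 bases around the start, 15 on each side of the boundary, are shown for 8 genes that the results turn on, with the pyrimidine run in capitals where there is one. RPS27 and RPS19 were among the highest genes, RPL13A and RPL24 had the lowest fold changes, RPL37A and RPL36 are cases of high fold change and of large replicate difference, and RPS29 and RPS26, the highest fold change and the lowest level, had no such run at the annotated start.
RPS27, chr1:153990747-153990776, plus strand: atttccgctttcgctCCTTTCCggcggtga
RPS19, chr19:41860240-41860269, plus strand: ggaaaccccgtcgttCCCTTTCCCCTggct
RPL13A, chr19:49487593-49487622, plus strand: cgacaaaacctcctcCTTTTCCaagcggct
RPL24, chr3:101686704-101686733, minus strand: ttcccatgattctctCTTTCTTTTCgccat
RPL37A, chr2:216498829-216498858, plus strand: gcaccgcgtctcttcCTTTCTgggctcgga
RPL36, chr19:5690280-5690309, plus strand: ccgcgcggcgccagcCCTTCCgccacggcc
RPS29, chr14:49598696-49598725, minus strand: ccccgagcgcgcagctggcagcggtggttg
RPS26, chr12:56041903-56041932, plus strand: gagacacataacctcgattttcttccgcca
The absence of a run in the last 2 windows says only that these letters are not at the annotated start.

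The 77 genes lay on 21 chromosomes. Chromosome 19 held 12 of them (15.6%), compared with 7.71% of all genes tested. They were among the most highly expressed genes of these cells. Of the 100 genes with the highest mean FPKM, 61 were ribosomal protein genes, and the lowest of the 77 ranked 219 among 14622 genes. Their median level was 1254 FPKM, and the median over all genes tested was 9.39 FPKM. The levels spanned 16.0-fold, from 297 FPKM for RPS26 to 4739 FPKM for RPS27. The median levels of the large and small subunits were 1250.1 FPKM over 46 genes and 1258 FPKM over 31 genes. Levels per length depend on which transcripts the authors' annotation held, which is not given in the sources used here.

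RPS27, a zinc-finger protein of the small subunit, was the highest, with 5900.2 and 3645 FPKM in Control and 4735 and 4676 FPKM in HAND1_OE. RPS29, another small zinc-binding protein of the small subunit, followed with 4945 and 2908 FPKM in Control and 4197 and 4133 FPKM in HAND1_OE. For both genes the 2 HAND1_OE libraries nearly coincided and lay between the widely separated Control libraries. RPS19, the gene most often mutated in Diamond-Blackfan anaemia, was at 4164 and 2889 FPKM in Control and 3760.2 and 2856 FPKM in HAND1_OE. RPS21 was at 3271 and 2154 FPKM in Control and 2813 and 2819 FPKM in HAND1_OE. RPL31, which lies near the exit of the peptide tunnel, was at 3131 and 2382 FPKM in Control and 2741 and 2652 FPKM in HAND1_OE. In all 5 genes the groups overlapped, with the highest value in Control replicate 1.

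At the low end, RPS26, which contacts mRNA upstream of the start codon, was at 352 and 263 FPKM in Control and 300.4 and 271 FPKM in HAND1_OE. RPL22, an RNA-binding protein of the large subunit, was at 505 and 416 FPKM in Control and 477 and 394 FPKM in HAND1_OE. RPL23A, at the tunnel exit, was at 616 and 482 FPKM in Control and 550.3 and 479 FPKM in HAND1_OE. RPS25 was at 663 and 537 FPKM in Control and 573 and 492 FPKM in HAND1_OE, and RPL21 was at 700.4 and 513 FPKM in Control and 641 and 504 FPKM in HAND1_OE. The groups overlapped in each of these 5 genes as well. The order of the genes by level was nearly the same in every library, with a Pearson r of log2 levels over the 77 genes of 0.973 to 0.993 between pairs of libraries. That r is across genes, which are not independent replicates and share each library and its scaling. RPS27 and RPS29 exceeded RPL31 in every library, whereas the ranges of RPS21 and RPL31 overlapped.

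**Figure D1:**
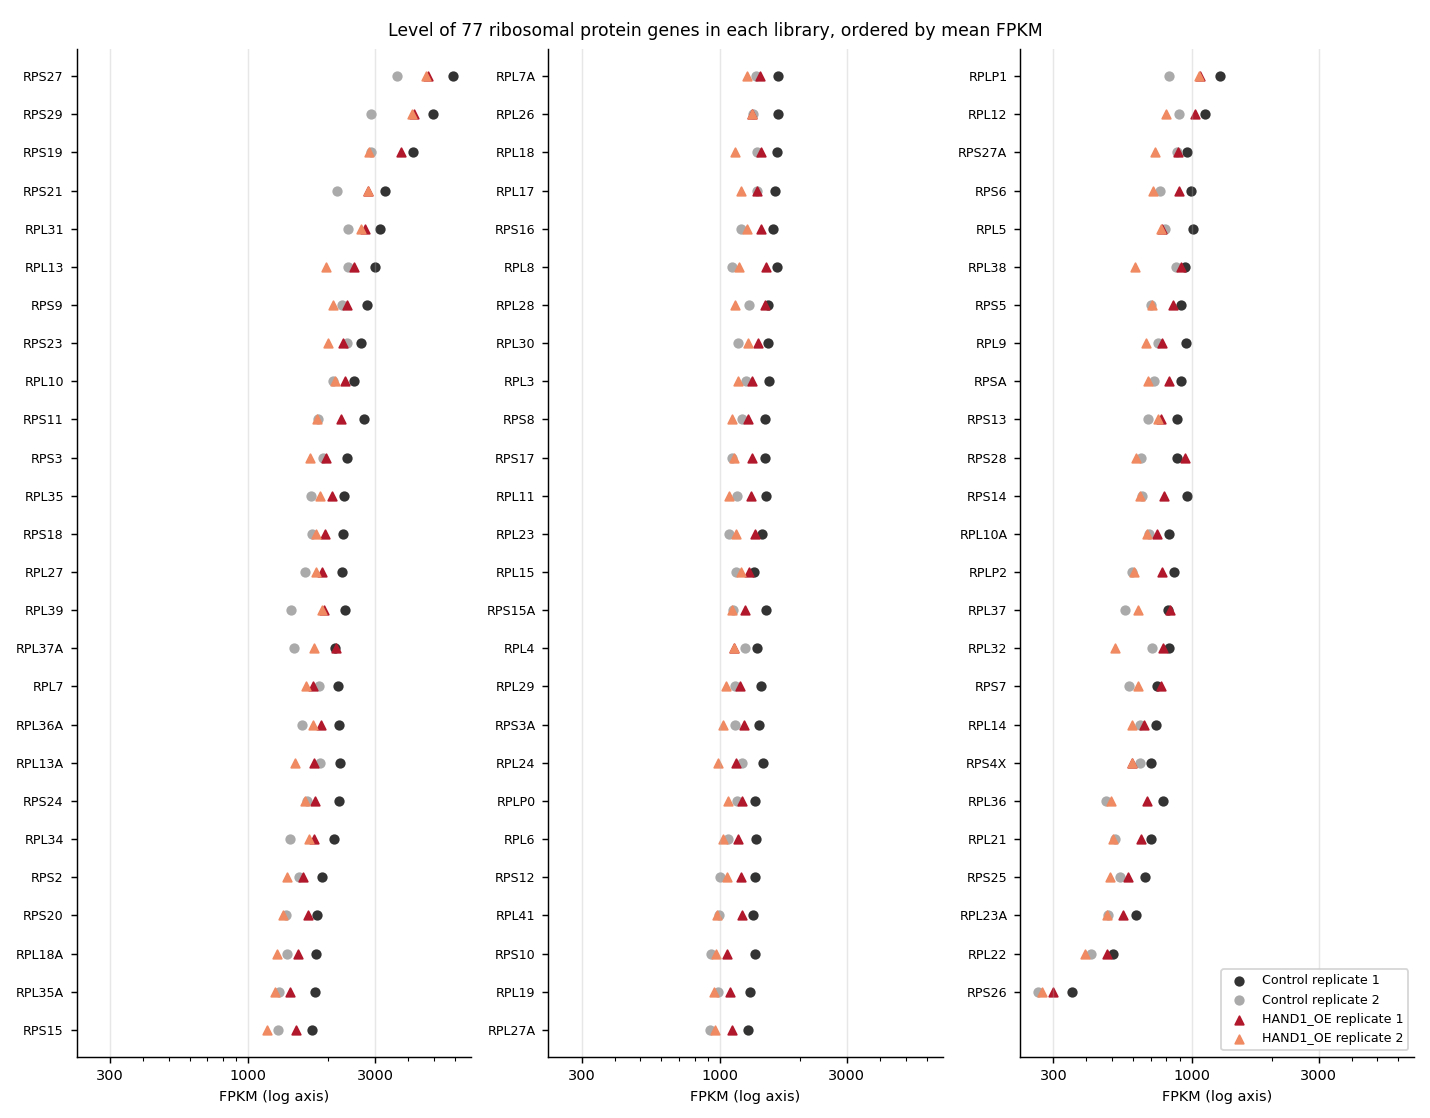
FPKM (log axis) of each of the 77 ribosomal protein genes in the 4 libraries, ordered by mean; circles are Control and triangles HAND1_OE, 1 point a library. Control replicate 1 was the highest library in 73 genes, and levels ran from 297 FPKM on average for RPS26 to 4739 FPKM for RPS27.

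The first comparison asked whether the expression of these genes changed with HAND1. No ribosomal protein gene passed the test in either direction at a limma adjusted p under 0.05, compared with 4.16% of all genes tested (608 genes), 2.04% higher and 2.11% lower. None reached an unadjusted p under 0.05 either, where 17.4% of all genes tested did. After quantile normalization 3 of the 77 did so, where 2525 of all 14622 genes tested did. With the replicate number as a block 2 of the 77 did, where 4191 of all 14622 did. The smallest adjusted p was 0.518, for RPL24. The log2 fold changes, as HAND1_OE minus Control on the log2(FPKM + 1) scale, ran from -0.32 to 0.14 with a median of -0.12, beside -0.08 over all genes tested. They lay below 0 in 67 genes (87.0%) and above 0 in 10, where 61.3% of all genes tested lay below 0. After median-ratio scaling, which moved the median of all genes to 0.0022, only 41 of the 77 lay below 0. The median of the 77 was -0.03 to -0.10 under the other scalings of the libraries. It turned to 0.075 without Control replicate 1 and to 0.0017 without HAND1_OE replicate 2, so its direction rested on single libraries. The standard error of a gene was 0.164 to 0.310, larger than the SD of 0.102 of the fold changes over the 77 genes. The 95% intervals of all 77 lay within 1 log2 of 0, between -0.88 and 0.91, so a 2-fold change was outside the interval of each gene.

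RPL13A (ENSG00000142541.16, GRCh38 chromosome 19, 49487554 to 49492308), a large subunit protein that also takes part in translational silencing outside the ribosome, had the lowest fold change. It was at 2214 and 1866 FPKM in Control and 1766 and 1501 FPKM in HAND1_OE. Its log2 fold change was -0.32 (standard error 0.210, limma adjusted p = 0.533). RPL24 (ENSG00000114391.12, chromosome 3, 101681091 to 101686782), which forms part of a bridge to the small subunit, was at 1447 and 1210.1 FPKM in Control and 1151 and 980.2 FPKM in HAND1_OE. Its log2 fold change was -0.32 (standard error 0.201). In both genes the HAND1_OE libraries lay below both Control libraries, but the gap was smaller than the difference between replicates. RPL7, whose locus is on chromosome 8 (73290267 to 73295789), was at 2175 and 1843 FPKM in Control and 1745 and 1642 FPKM in HAND1_OE. It likewise did not overlap, with a log2 fold change of -0.24.

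For 3 further genes with low fold changes, the groups overlapped. RPL38, known for its part in the translation of Hox mRNAs, was at 937 and 867 FPKM in Control and 906 and 608 FPKM in HAND1_OE. RPL32 was at 820 and 709 FPKM in Control and 775 and 515 FPKM in HAND1_OE. RPL13 was at 3003 and 2365 FPKM in Control and 2508 and 1964 FPKM in HAND1_OE. Their log2 fold changes were -0.28, -0.27 and -0.26. RPL38 and RPL32 were low in HAND1_OE replicate 2 alone, and without that library their log2 fold changes were 0.00686 and 0.022.

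The 6 highest fold changes were smaller in size than the 6 lowest. RPS29 (ENSG00000213741.9, chromosome 14, 49570984 to 49599164) had the highest, 0.14 (standard error 0.310, limma adjusted p = 0.889), and without Control replicate 2 it became -0.25. RPL37A was at 2120 and 1481 FPKM in Control and 2132 and 1762 FPKM in HAND1_OE, and its log2 fold change was 0.13. RPL37 was at 813 and 557 FPKM in Control and 824 and 625 FPKM in HAND1_OE, and its log2 fold change was 0.093. RPS7, which can bind MDM2 when outside the ribosome, was at 738 and 576 FPKM in Control and 765 and 628 FPKM in HAND1_OE, and its log2 fold change was 0.088. In these 3 genes each HAND1_OE library exceeded the Control library of the same number, and the groups overlapped. RPS21 had a log2 fold change of 0.085. RPLP1, an acidic protein of the stalk that recruits elongation factors, was at 1272 and 820 FPKM in Control and 1076 and 1064 FPKM in HAND1_OE, and its log2 fold change was 0.067.

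Both HAND1_OE libraries lay below both Control libraries in 8 genes (10.4%), where 30.1% of all genes tested did so. They lay above in 0 genes, where 16.2% of all genes tested did so. The 8 genes were RPL13A, RPL24, RPL7, RPS23, RPL5, RPL4, RPS4X and RPL26. In the other 69 genes the groups overlapped.

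**Figure D2:**
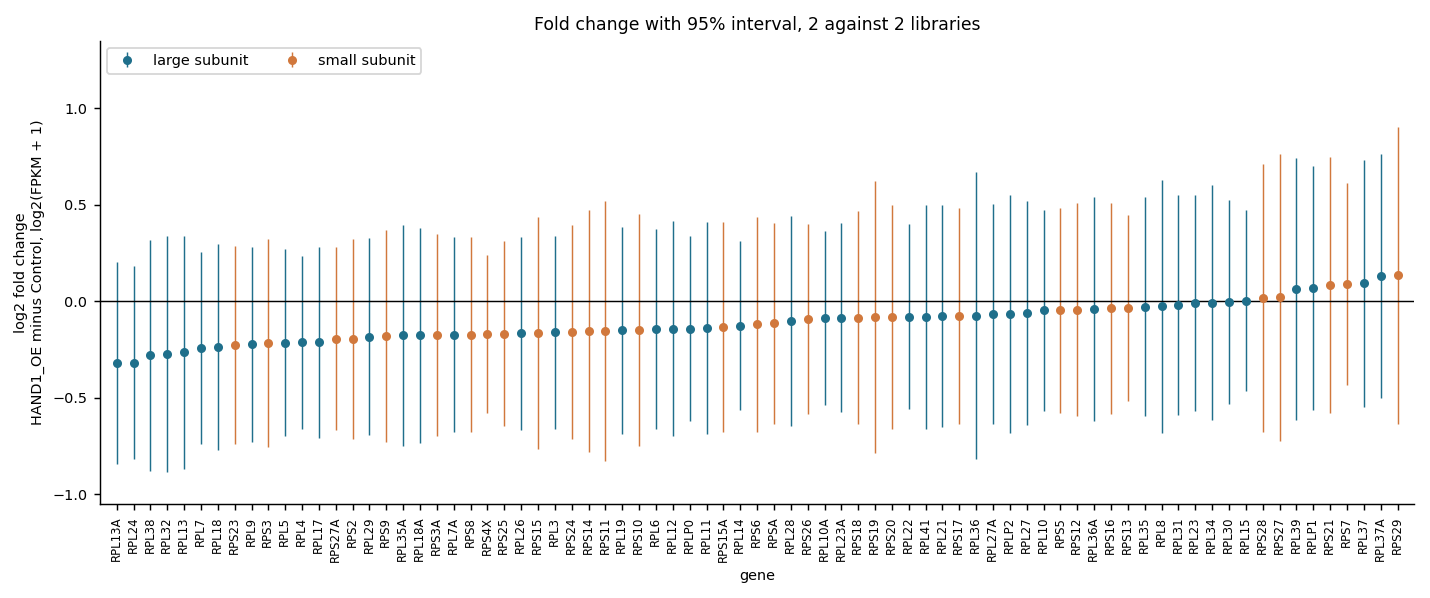
Log2 fold change (HAND1_OE minus Control, log2(FPKM + 1)) of each ribosomal protein gene with its 95% interval from limma, coloured by subunit, 2 against 2 libraries. Every interval includes 0 and stays between -0.88 and 0.91. Of the 77 points 67 lie below 0, where 61.3% of all genes tested did. That direction turned for the median when Control replicate 1 or HAND1_OE replicate 2 was left out.

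The genes were then grouped by role, and none of the groups held a called gene. The 19 genes of Diamond-Blackfan anaemia had a median log2 fold change of -0.08, ranging from -0.23 for RPL18 to 0.14 for RPS29, and 14 lay below 0. RPL5 (-0.21), RPL35A (-0.18) and RPL26 (-0.17) were the next lowest of these. The 4 proteins of the stalk ran from -0.14 for RPL12 and RPLP0 to 0.067 for RPLP1, with RPLP2 at -0.06. RPL5 and RPL11, which join 5S rRNA in a particle that can also bind MDM2, were at -0.21 and -0.14. RPL5 was at 1006 and 792 FPKM in Control and 773 and 766 FPKM in HAND1_OE, so that Control replicate 1 stood apart from the other 3 libraries.

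The 8 proteins that line the peptide tunnel or its exit had a median log2 fold change of -0.12. RPL4, which reaches into the tunnel, was at 1381 and 1235 FPKM in Control and 1126 and 1128 FPKM in HAND1_OE, and its log2 fold change was -0.21 (standard error 0.180). RPL17 was also at -0.21, RPL26 at -0.17 and RPL19 at -0.15. The 4 proteins near the decoding centre and the mRNA path, RPS23 (-0.23), RPS3 (-0.22), RPS2 (-0.19) and RPS15 (-0.16), all lay below 0. RPS27A, which is made as a fusion with ubiquitin, was at -0.19. Of the 4 genes on the X chromosome, RPS4X was at -0.17, RPL10 at -0.05, RPL36A at -0.04 and RPL39 at 0.064. 

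Summed over the 77 genes, expression came to 127472 and 96376 FPKM in Control and to 110541 and 97099 FPKM in HAND1_OE. The means were 111924 ± 21988 FPKM (SD, n = 2) and 103820 ± 9505 FPKM (SD, n = 2), an exact two-sided permutation p = 1.0. With 2 libraries a group, the smallest p that such a test allows is 0.333. The Control libraries thus enclosed both HAND1_OE libraries. As a share of the summed FPKM of each library, the genes held 21.0% and 18.0% in Control and 19.1% and 17.8% in HAND1_OE (exact permutation p = 0.667). In bulk RNA, fewer cells with high ribosomal protein expression and less of this RNA in each cell cannot be told apart.

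The large subunit was then compared with the small subunit. The median log2 fold change was -0.11 over 46 large subunit genes and -0.12 over 31 small subunit genes, and 41 and 26 of them lay below 0. The ratio of the summed large subunit FPKM to the summed small subunit FPKM was 1.21 and 1.28 in Control and 1.22 and 1.21 in HAND1_OE. The group means were 1.24 ± 0.0515 (SD, n = 2) and 1.22 ± 0.00635 (SD, n = 2), with no difference beyond the spread (exact permutation p = 1.0). Control replicate 2 had the highest ratio and the lowest sum. In that library the 5 most highly expressed genes, 4 of which are small subunit genes, made up 14.5% of the sum of all 77, compared with 16.5% to 17.6% in the other libraries. Without those 5 genes the difference of the ratios turned from -0.026 to 0.022.

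**Figure D3:**
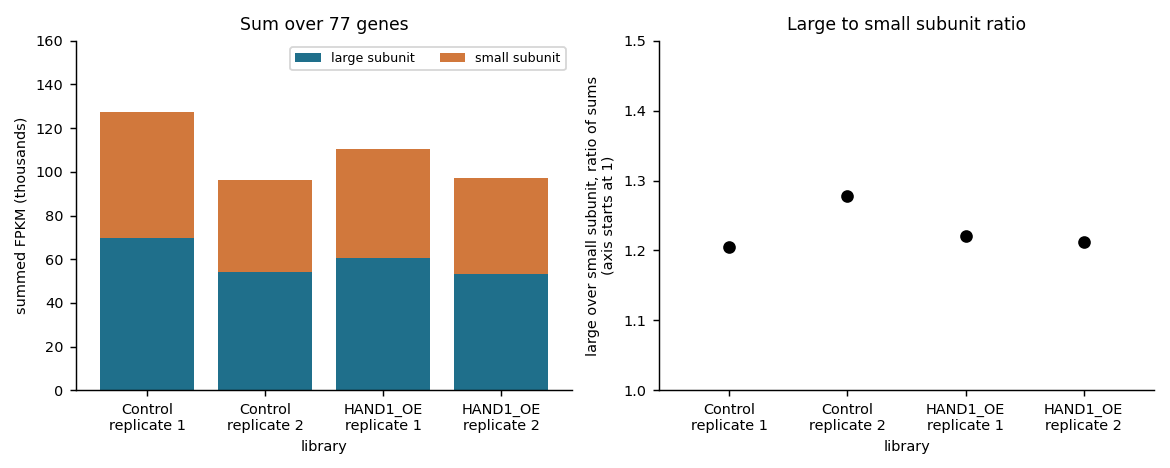
Left, FPKM summed over the 77 ribosomal protein genes in each library, split into large and small subunit; right, the ratio of the large to the small subunit sum, on an axis that starts at 1. Control replicate 1 had the largest sum (127472 FPKM), and the ratio was between 1.21 and 1.28 in all libraries.

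The second comparison set replicate 2 against replicate 1, numbers that the sample titles give to both groups. Here nearly all genes differed in 1 direction. All 77 were lower in replicate 2 than in replicate 1 of Control, by a median of -0.37 on the log2 scale (range -0.77 to -0.11), where the median over all genes tested was -0.03. In HAND1_OE 73 of 77 were lower in replicate 2, with a median of -0.20 (range -0.61 to 0.0073), where the median over all genes tested was 0.0059. The exceptions were RPL26, RPL4, RPS21 and RPS4X, whose values in the HAND1_OE libraries differed by less than 0.01 log2. In both groups at once 73 genes (94.8%) were lower in replicate 2, where 36.8% of all genes tested were.

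In the limma fit with the group as a term, the replicate coefficient had a median of -0.29 over the 77 genes and ran from -0.59 for RPL36 to -0.07 for RPS4X. No gene passed the adjusted threshold (smallest adjusted p = 0.131), where 0.00684% of all genes tested, 1 gene, did. At an unadjusted p under 0.05 there were 35 of 77, where 24.6% of all genes tested were. This fit leaves 1 residual degree of freedom. The direction of the median held under every scaling tried, but its size did not. It was -0.27 after median-ratio scaling, -0.16 after rescaling each library to the same total (TPM), which moved the median of all genes from -0.01 to 0.106, and -0.04 after quantile normalization, where 57 of 77 genes lay below 0. Quantile normalization gives every library the same set of values, and all 77 genes ranked within the highest 219. By design it removes much of any shift that the highest genes share, so it cannot decide the size of this one. The numbers may mark a shared batch or only name the samples, which was not tested.

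RPL36 (ENSG00000130255.12, chromosome 19, 5674947 to 5691876), a large subunit protein, differed most between replicates. It was at 779 and 473 FPKM in replicates 1 and 2 of Control and at 675 and 493 FPKM in HAND1_OE. RPS28, a small subunit protein near the mRNA exit, was at 876 and 640 FPKM in Control and 938 and 613 FPKM in HAND1_OE. RPL37 and RPS19, given above, had replicate coefficients of -0.47 and -0.46. In these 4 genes the 2 libraries numbered 1 were both higher than the 2 libraries numbered 2, whichever the group. By contrast, RPS29 and RPS27 differed by -0.77 and -0.69 between the Control replicates and by only -0.02 and -0.02 between the HAND1_OE replicates. RPL38 and RPL32 showed the opposite, with -0.11 and -0.21 in Control and -0.57 and -0.59 in HAND1_OE.

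As a result the difference between groups depended on the pair of libraries. For replicate 1 the median of HAND1_OE minus Control was -0.21 and 73 genes were lower in HAND1_OE. For replicate 2 the median was -0.03, and 29 genes were higher in HAND1_OE. Control replicate 1 was the highest library in 73 genes, and HAND1_OE replicate 1 in the remaining 4 (RPL37, RPL37A, RPS28 and RPS7). The lowest library was HAND1_OE replicate 2 in 45 genes, Control replicate 2 in 29 and HAND1_OE replicate 1 in 3.

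**Figure D4:**
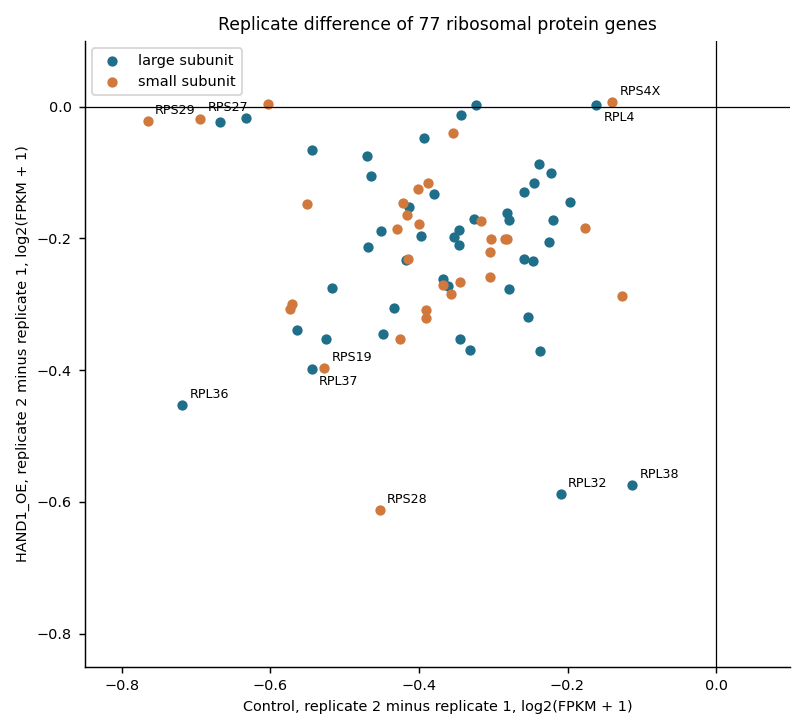
Difference between replicate 2 and replicate 1 in Control (horizontal axis) and in HAND1_OE (vertical axis), as log2(FPKM + 1), 1 point for each of the 77 ribosomal protein genes. All points lie left of 0 and 73 lie below 0, RPL36 is low on both axes, and RPS29 and RPS27 differed in Control alone. The median stayed below 0 under every scaling tried. It shrank to -0.04 after quantile normalization, which by design removes much of any shift that the highest genes share.

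The genes differ in length, which enters FPKM, so the differences were set beside coding length from GENCODE release 29. The coding sequences of the 77 ran from 75 nucleotides for RPL41 to 1281 for RPL4, with a median of 456, where the median of all genes tested was 1191. Over the 77 genes, the Control replicate difference was more negative in shorter genes (Pearson r = 0.528 with log2 coding length, Spearman rho = 0.580), whereas the HAND1_OE replicate difference gave weaker values (r = 0.143, rho = 0.061). The group difference was higher in shorter genes (r = -0.47, rho = -0.50). These are descriptions across genes that share the 4 libraries. In the 9 genes with a coding length under 300 nucleotides, among them RPS29, RPL39, RPS21 and RPS27, the Control replicate difference had a median of -0.54 and the group difference a median of 0.064. In the 19 genes from 600 up to 900 nucleotides these medians were -0.28 and -0.17.

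The same lengths were then examined in other genes. Among all protein-coding genes tested, the Control replicate difference had a median of -0.22 for 280 genes under 300 nucleotides and of 0.0048 for 9057 genes of 900 or more. The group difference had medians of -0.0033 and -0.08 in these classes. In short genes it was thus not above 0, as it was in short ribosomal protein genes with every library kept. Without Control replicate 2 the group difference lay below 0 in all 77 ribosomal protein genes (highest -0.09). After the trend of each library on transcript length was removed, an alternative added after the data were seen, the replicate coefficient of the ribosomal protein genes had a median of -0.16, with 76 of 77 below 0. The median group difference was then -0.03, with 42 of 77 below 0. Some genes of short coding length had a long annotated transcript, 7686 nucleotides for RPL37 and 3647 for RPL37A. The removal treated these as long genes.

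**Figure D5:**
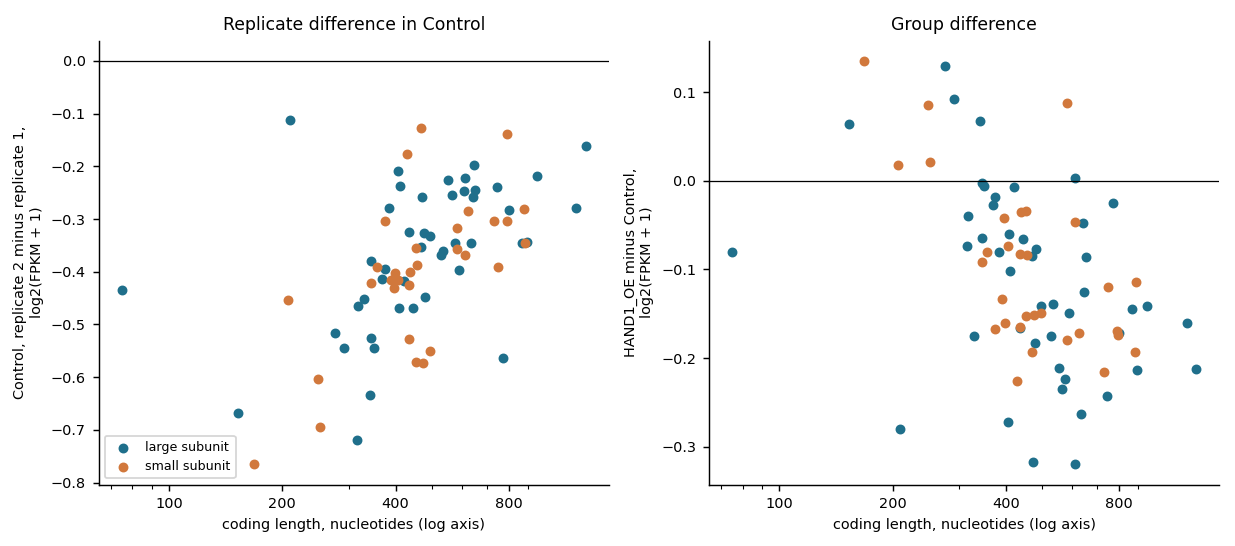
Difference between the Control replicates (left) and between the groups (right), both as log2(FPKM + 1), against coding length in nucleotides (log axis), 1 point for each of the 77 ribosomal protein genes. The shortest genes had the most negative replicate differences in Control and the highest group differences, with RPL38 and RPL41 as exceptions. The median group difference turned above 0 without Control replicate 1 or HAND1_OE replicate 2. Without Control replicate 2 all 77 group differences lay below 0 (highest -0.09).

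Genes with and without a TOP start at the annotated first base were then set side by side. The median group difference was -0.12 over 46 genes with the motif and -0.15 over 16 without. The Control replicate difference had medians of -0.37 and -0.35, and the HAND1_OE replicate difference medians of -0.19 and -0.18.

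Near-identical copies can take reads from a ribosomal protein gene. The table held 951 pseudogene rows named after the 77 genes, of which 577 were listed at 0 in all libraries and 75 had a mean of at least 1 FPKM. They summed to 1127 and 675 FPKM in Control and 1013 and 705 FPKM in HAND1_OE, 0.700% to 0.916% of the sum of their parents. The largest was RPS29P5 on chromosome 1, with 388 and 70.7 FPKM in Control and 349 and 175 FPKM in HAND1_OE. It was low in both replicates 2, and at 6.07% of its parent it was a minor part of it. RPS28P7 had 10.5% of the mean level of RPS28. Adding the pseudogene rows to their parents left the log2 ratio of the summed levels at -0.11.

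Gene lists related to ribosomes were examined next. Ribosome components outside the symbol rule include FAU, a ubiquitin-like fusion with a small subunit protein, and RACK1, a scaffold protein on the small subunit. FAU was at 506 and 366 FPKM in Control and 444 and 355 FPKM in HAND1_OE. RACK1 was at 1715 and 1525 FPKM in Control and 1488 and 1221 FPKM in HAND1_OE. Neither was called, the log2 fold changes were -0.12 and -0.26, and both genes were lower in replicate 2 in both groups, as most of the 77 were.

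Of 18 translation factors and other mRNAs of the TOP class, none was called. With values as deposited 17 of them lay below 0 and their median log2 fold change was -0.21. Of all genes tested 61.3% lay below 0, with a median of -0.08. Of the 18, 11 had a promoter window, and a TOP start was found in 10 of these. EEF1A1, the elongation factor that brings tRNA to the ribosome, was at 4144 and 3863 FPKM in Control and 3437 and 3668 FPKM in HAND1_OE. TPT1, a growth-related TOP mRNA, was at 2614 and 1999 FPKM in Control and 2716 and 2269 FPKM in HAND1_OE. These genes showed less of the replicate difference, with medians of -0.12 in Control and -0.03 in HAND1_OE. None of 38 ribosome biogenesis factors tested was called (median -0.17). NPM1, a nucleolar chaperone, was at 480 and 455 FPKM in Control and 383 and 375 FPKM in HAND1_OE, and NOP10, a subunit of the pseudouridylation complex, had a log2 fold change of 0.26.

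Of 8 host genes of small nucleolar RNAs, which guide rRNA modification, EPB41L4A-AS1 fell, from 46.1 and 48.9 FPKM in Control to 26.7 and 20.2 FPKM in HAND1_OE (log2 fold change -1.001, limma adjusted p = 0.0458), and the other 7 were not called. That call was lost under most other settings, among them each scaling of the libraries. It is annotated antisense to EPB41L4A, and whether the counting used strand is not given in the sources used here. None of 11 genes of the mTOR pathway and MYC was called (median -0.12). EIF4EBP1, a translation repressor that mTOR inactivates, was at 94.5 and 78.8 FPKM in Control and 93.7 and 75.7 FPKM in HAND1_OE. TSC2, an inhibitor of mTOR signalling, had a log2 fold change of -0.17. MYC, a transcription factor that drives ribosome production, was at 27.1 and 36.2 FPKM in Control and 22.4 and 19.2 FPKM in HAND1_OE, and its log2 fold change was -0.58 (limma adjusted p = 0.213). Its groups did not overlap.

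The 8 ribosomal protein-like paralogs are copies that can replace a main gene in some tissues. Their means ran from 0.085 FPKM for RPL3L to 174 FPKM for RPL36AL, below the 297 FPKM of RPS26, the lowest of the 77 genes. Of the 8 paralogs 6 were tested and none was called, with a median log2 fold change of 0.043. RPS27L was at 185 and 137 FPKM in Control and 195 and 170.2 FPKM in HAND1_OE, where RPS27 itself had a mean of 4739 FPKM. RPL36AL was at 205 and 156 FPKM in Control and 182 and 152 FPKM in HAND1_OE.

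The mitochondrial ribosome, built from its own nuclear-encoded proteins, served as the nearest comparison. It also numbered 77 genes here, none of which was called, and the median log2 fold change was -0.05. MRPL52, the highest of them, was at 192 and 142 FPKM in Control and 229 and 165 FPKM in HAND1_OE, and MRPL33 had a log2 fold change of 0.11. The replicate differences had medians of -0.24 in Control and -0.22 in HAND1_OE, and 53 of 77 were lower in replicate 2 in both groups. A TOP start was present in 6 of the 68 with a promoter window (8.82%). No test of the difference between the cytoplasmic and the mitochondrial genes was made.

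Markers of several cell types differed between groups. Of 11 erythroid markers tested 9 fell, and their sum over 12 markers was 904 and 1297 FPKM in Control but 78.9 and 82.8 FPKM in HAND1_OE. Of the blood progenitor and myeloid markers 5 of 5 tested fell (sums of 180 to 221 FPKM in Control, 17.4 to 24.7 FPKM in HAND1_OE), while the defining markers PTPRC and MPO were listed at or near 0 in all libraries. Of 6 stromal markers tested 2 rose, PDGFRB and POSTN, and 4 were not called. Among the latter PDGFRA and COL3A1 had log2 fold changes of 1.20 and 1.16, with both HAND1_OE libraries above both Control libraries. COL1A2 and COL1A1 were at -0.82 and -0.23, with both HAND1_OE libraries below both Control libraries. The stromal sum was 331 to 416 FPKM in Control and 461 to 511 FPKM in HAND1_OE, and COL3A1 alone went from a mean of 129 to 283 FPKM. Of the pluripotent cell markers 0 of 4 tested were called, although all 4 had a log2 fold change below 0. Their sums over 6 markers were 73.8 and 88.5 FPKM in Control and 51.5 and 68.6 FPKM in HAND1_OE. Endothelial markers summed to 1389 and 1239 FPKM in Control and 1264 and 1404 FPKM in HAND1_OE, and 0 of 8 were called at an adjusted p under 0.05. They did not move together. EMCN was at 22.8 and 34.2 FPKM in Control and 58.5 and 88.3 FPKM in HAND1_OE (log2 fold change 1.33). For TIE1 (-0.33) and KDR (-0.06) both HAND1_OE libraries lay below both Control libraries, and for the other endothelial markers the groups overlapped. PECAM1, which encodes the CD31 protein used for selection, was at 95.5 and 141 FPKM in Control and 92.0 and 160.2 FPKM in HAND1_OE. The erythroid sum was higher in replicate 2 of Control, where the ribosomal protein genes were lower. The part of these markers in the values of the ribosomal protein genes was not tested.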

How the data were processed

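CD31+ cells from H1 were profiled in 4 libraries made from total RNA with a TruSeq kit. The authors deposited 1 table of gene values, taken here as FPKM: it names no unit, but the study plots FPKM and the values are not whole numbers. Per the labels BWA, Bowtie and RSEM were used, without versions, and the build was hg19. The coordinates in the table, however, equal GENCODE 29 (GRCh38) for 55583 of 58229 genes and for 58 of the 77 ribosomal protein genes. GRCh38 is used here, and lengths come from GENCODE 29 for all 77. Read depth is unknown. Summed FPKM were 536299 to 606623 a library.

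Of 58365 rows, 45 pseudoautosomal Y copies and 91 further rows sharing a gene ID were left out. Genes that reached 1 FPKM in 2 or more libraries were tested on the log2(FPKM + 1) scale with limma 3.58.1 (R 4.3.3), a mean-variance trend, two-sided p-values and Benjamini-Hochberg adjustment over all genes tested. A fold change on this scale understates the change of low genes. Single values per library were compared by an exact permutation test. The code was tested on simulated data. Replicate numbers came from the sample titles. Coding length is the median over principal transcripts of GENCODE 29, and transcript length is that of the shortest of them. Promoter windows hold 250 bases before and 50 after a start.

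The members, roles and gene lists were chosen with earlier results of these data known. Named genes follow a rule: the 6 highest and 6 lowest fold changes, the 5 highest and 5 lowest levels, the 4 largest replicate differences, up to 4 genes a role, from each list up to 3 called genes or the 2 highest, and FAU, RACK1, HAND1 and MYC. A gene that the rule also names is not reported here. The genes whose groups did not overlap, the exceptions named between replicates, RPS29P5, RPS28P7 and the collagen genes were chosen after their values were seen, and the marker lists are given mainly as counts and sums. Alternatives were a pseudocount of 0.1, other filters, other scalings, no trend, leaving out each library, a block for the replicate number, and protein-coding genes alone. Removal of the trend on transcript length (loess, span 0.3) was added after the data were seen.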

Additional observations from a re-analysis of the deposited data

How the results depend on the processing

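No ribosomal protein gene was called under any of the alternatives run, for the group or for the replicate number. The median group difference was -0.30 to 0.075 with each library left out. The log2 ratio of the summed levels, -0.11, was -0.30 to 0.107 with each library left out and 0.107 without Control replicate 1. The difference of the large to small subunit ratio was -0.062 to 0.011 with each library left out and 0.022 without the 5 highest genes. The median replicate coefficient, -0.29, was -0.043 after quantile normalization, -0.16 after rescaling to TPM and -0.16 with the length trend removed. Quantile normalization by design removes much of any shift that the highest genes share. Where the other values moved, the cause was not tested.

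HAND1 had a limma adjusted p = 0.153 with all genes above 0 tested, at an unchanged log2 fold change of 5.20. In that setting 0 of 29860 genes passed the adjusted threshold, with 3810 at an unadjusted p under 0.05. Why the adjusted p rose was not tested. Of the related lists 1 gene was called in the main fit, 0 with a pseudocount of 0.1, all genes above 0, the scalings, no trend, protein-coding genes alone or the length trend removed, and 0 to 2 with each library left out. With the replicate block 6 were called, and 10 with the length trend removed as well. The block rests on 2 pairs, and whether the replicate numbers mark a shared batch was not tested. The replicate differences of the groups correlated at 0.383 over genes. The block called 0 of the 77 genes and moved the calls over all genes from 608 to 1309.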
